A study of Homo sapiens with 6 samples.

Results

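The aminoacyl-tRNA synthetases are the enzymes that attach each amino acid to its transfer RNA. Their genes were chosen by symbol from the deposited count table: 35 of its 29538 genes, of which 19 encode cytosolic and 16 encode mitochondrial enzymes, the symbols that end in 2 being the mitochondrial ones. All 35 symbols were in the table, and the rule itself uses names and no measured value. The cells were MDA-MB-231, an established human breast cancer line of mesenchymal character. Tested cultures (siBYSL, n = 3) received an siRNA against BYSL, which encodes bystin, a maturation factor of the small ribosomal subunit. Control cultures (siNC, n = 3) received a negative-control siRNA, whose sequence was not used here. Both groups got 160 pmol siRNA per well, a change of medium after 6 h and harvest at 48 h. The labels call the 3 cultures of a group biological replicates, and a single siRNA against BYSL was used, so p-values measure the spread between cultures of 1 line under 1 siRNA.

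Protein synthesis in the cytosol and in the mitochondrion uses separate pools of charged tRNA, and most amino acids have a nuclear gene for each compartment. Some cytosolic enzymes sit in the multisynthetase complex, held together by the AIMP scaffold proteins, and the others work as free enzymes. GARS1 and KARS1 also give rise to the mitochondrial form of their enzyme, and mitochondria lack a glutaminyl-tRNA synthetase of their own: EARS2 loads glutamate and an amidotransferase converts it. Many cytosolic synthetase genes are known targets of ATF4, the transcription factor of the integrated stress response, which is itself switched on when uncharged tRNA accumulates.

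Poly(A) RNA-seq libraries held 27754883 to 32088817 counts in siBYSL and 28606048 to 30476744 in siNC. BYSL had 459, 519 and 502 counts in the siBYSL libraries, against 2908, 2648 and 3006 in siNC, 16.4% of the siNC level (log2 fold change -2.61, SE 0.067, adjusted p = 9.4e-09 by the quasi-likelihood test of edgeR with Benjamini-Hochberg adjustment). Library siBYSL 3 stood apart: the chi-square of gene counts, divided by its degrees of freedom, reached 22.1 for siBYSL 1 with 3 and 13.6 for siBYSL 2 with 3, beside 3.44 for siBYSL 1 with 2 and 2.48 to 4.7 for pairs of siNC libraries. All 5 markers of the line were present, at 150.2 CPM or more (counts scaled to the TMM-adjusted library size) in every library, but 4 fell: AXL (-0.51 on the log2 scale), CAV1 (-0.47), EGFR (-0.23) and VIM (-0.21), while CD44 rose (0.19). Their summed level was 4109.8 to 4249 CPM in siBYSL and 4822 to 4888 CPM in siNC. The estrogen receptor gene ESR1 stood at 0 to 0.0908 CPM. Of 7 markers of other breast or cell types, 4 could be tested. The epithelial genes CDH1 and EPCAM rose (1.04 and 0.54), while PECAM1 (0.28, edgeR adjusted p = 0.0541) and KRT8 (0.03, 0.763) did not pass. KRT8 stood at 664.9 to 789.1 CPM over the libraries and made up most of the summed level of the 7. The leukocyte marker PTPRC, which was not tested, stood at 0.312 CPM or less. The summed level of the 7 markers was 701.8 to 824.4 CPM in siBYSL and 702.2 to 748.1 CPM in siNC, and the part of both marker lists in the results was not tested.

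More cytosolic than mitochondrial synthetase transcripts passed the test as lower after BYSL depletion, a contrast between compartments that was not itself tested. Levels differed too: siNC means ran from 67.4 to 417.6 CPM for cytosolic genes and from 9.59 to 175.7 CPM for tested mitochondrial ones. The SE of the log2 fold change ran from 0.046 to 0.068 and from 0.058 to 0.099, so the number passing also depends on level. Of the 19 cytosolic genes, 13 fell, 0 rose and 6 did not pass the test, with a median log2 fold change of -0.21. Of 15 tested mitochondrial genes, 3 fell, 1 rose and 11 did not pass, with a median of -0.04 that turned to 0.040 with libraries scaled by their totals alone and to 0.0061 with upper-quartile factors. Together that is 16 falls and 1 rise among 34 tested members, beside a background in which 36.9% of all 16412 tested genes were called at an adjusted p under 0.05, 18.4% lower and 18.5% higher, around a median of 0.0066. With library totals alone 10 members were lower and 3 higher, among 1989 lower and 4106 higher genes, and with upper-quartile factors 15 and 2, among 2418 lower and 3630 higher. Among the 9932 tested genes with a mean of 10 CPM or more, 44.0% were called, 25.4% lower and 18.5% higher, with a median of -0.04. In 19 members the groups did not overlap, 13 of them cytosolic, where 49.6% of all tested genes had groups that did not overlap. In bulk RNA, less transcript per cell cannot be told apart from fewer cells that carry it.

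The 19 cytosolic genes summed to 2770.2, 2755 and 2662 CPM in siBYSL 1 to 3, against 3405, 3371 and 3382 CPM in siNC 1 to 3. The groups lay apart, and the spread within a group was small beside the gap. The 16 mitochondrial genes summed to 576.5, 566.0 and 543.2 CPM in siBYSL, against 535.5, 556.9 and 545.1 CPM in siNC, and these ranges overlapped. Library by library, the median cytosolic member lay below the siNC mean by -0.19, -0.21 and -0.25 on the log2 scale in siBYSL 1 to 3. The median mitochondrial member lay at -0.03, -0.0014 and -0.0037. siBYSL 3, the library that stood apart, was the lowest of its group for 14 of 34 members. Without it 14 cytosolic genes fell, the added one being HARS1 (log2 fold change -0.11, adjusted p = 0.0382), and the 4 mitochondrial calls were the same in number, but the mitochondrial median changed sign to 0.02.

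**Figure D1:**
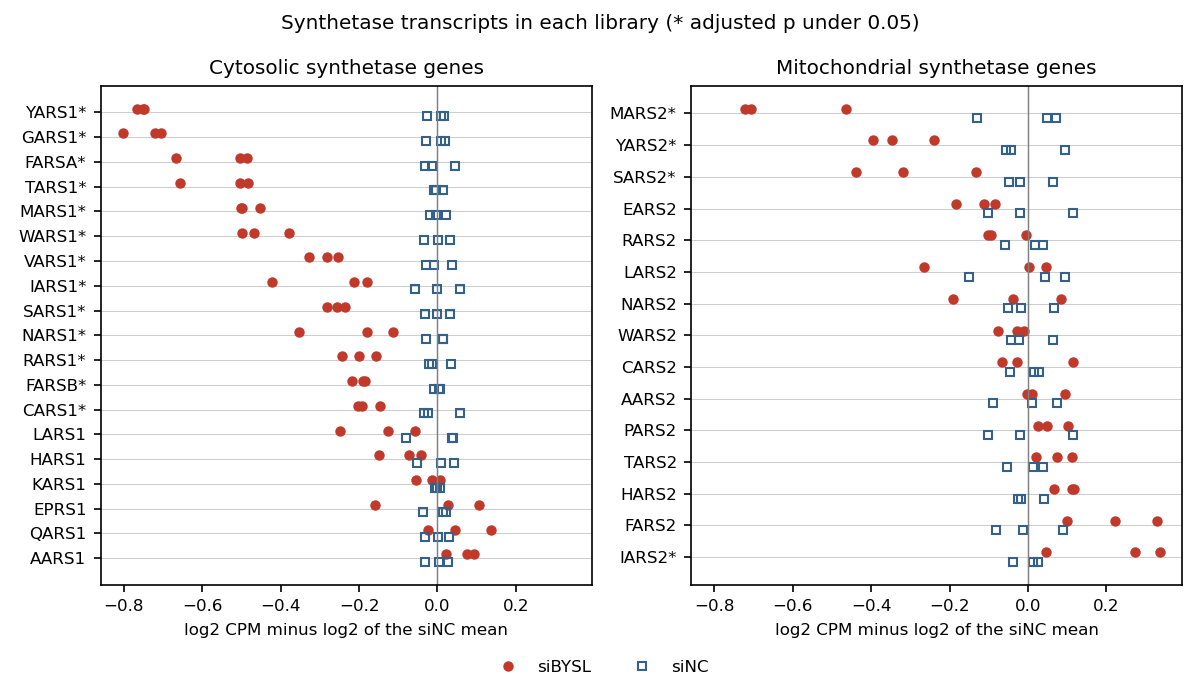
Log2 CPM of each tested synthetase gene in each library minus the log2 of its siNC mean (x axis), for cytosolic genes at left and mitochondrial genes at right; circles are siBYSL and squares siNC libraries, and an asterisk marks an adjusted p under 0.05. The upper 13 cytosolic genes have all siBYSL points left of all siNC points, whereas most mitochondrial genes scatter around 0. VARS2, too low to test, is not drawn.

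The deepest falls were in the enzymes for tyrosine and glycine. YARS1, the tyrosyl-tRNA synthetase, whose secreted fragments are also known as cytokine-like signals, had 94.5, 95.6 and 95.8 CPM in siBYSL against 162.1, 158.0 and 162.8 CPM in siNC. GARS1, the glycyl-tRNA synthetase, had 201.5, 199.5 and 188.6 CPM in siBYSL against 333.1, 322.3 and 330.7 CPM in siNC. Both genes were down to about the same share of control, 59.2% for YARS1 and 59.8% for GARS1, with no overlap between groups. The log2 fold change was -0.76 for YARS1 (SE 0.046, edgeR adjusted p = 1.72e-06) and -0.74 for GARS1 (SE 0.050, adjusted p = 3.16e-06). YARS1 (ENSG00000134684.12) lies on chromosome 1 from 32775237 to 32818153, minus strand, and GARS1 (ENSG00000106105.15) on chromosome 7 from 30594681 to 30634033, plus strand (GRCh38, GENCODE 29).

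Among cytosolic genes, the phenylalanyl subunit FARSA and the threonyl enzyme came next. TARS1, the threonyl-tRNA synthetase, averaged 285.9 ± 18.4 CPM in siBYSL and 417.6 ± 3.4 CPM in siNC (SD, n = 3 each), and the siBYSL libraries read 298.6, 294.3 and 264.8 CPM, against 421.5, 416.6 and 414.9 CPM in siNC. Its log2 fold change was -0.55 (SE 0.057, adjusted p = 4.67e-05), and siBYSL 3 was the lowest library. FARSA, the catalytic alpha subunit of the phenylalanyl enzyme, had 66.9, 74.9 and 75.8 CPM in siBYSL, against 109.5, 103.9 and 105.3 CPM in siNC. Its log2 fold change was -0.55 (SE 0.060, adjusted p = 5.99e-05). FARSB, the beta subunit of the same enzyme, averaged 58.7 ± 0.74 CPM in siBYSL and 67.4 ± 0.40 CPM in siNC. Its fall was -0.20 (SE 0.050, adjusted p = 0.00973), so both subunit transcripts were lower but by unequal amounts, a difference that was not tested.

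MARS1, the methionyl-tRNA synthetase of the multisynthetase complex, which charges the initiator tRNA as well, had 114.7, 118.4 and 114.5 CPM in siBYSL against 164.5, 161.6 and 159.9 CPM in siNC (log2 fold change -0.48, SE 0.047, adjusted p = 2.9e-05). WARS1, the tryptophanyl enzyme and a gene also known for its induction by interferon gamma, had 143.7, 152.9 and 140.5 CPM in siBYSL against 194.0, 203.1 and 199.0 CPM in siNC (-0.45, SE 0.051, adjusted p = 8.45e-05). Neither gene had an overlap between groups. Of the 34 tested members, 5 were called and lower by 0.5 or more on the log2 scale, namely YARS1, GARS1, MARS2, FARSA and TARS1. Over all tested genes that share was 4.99%.

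**Figure D2:**
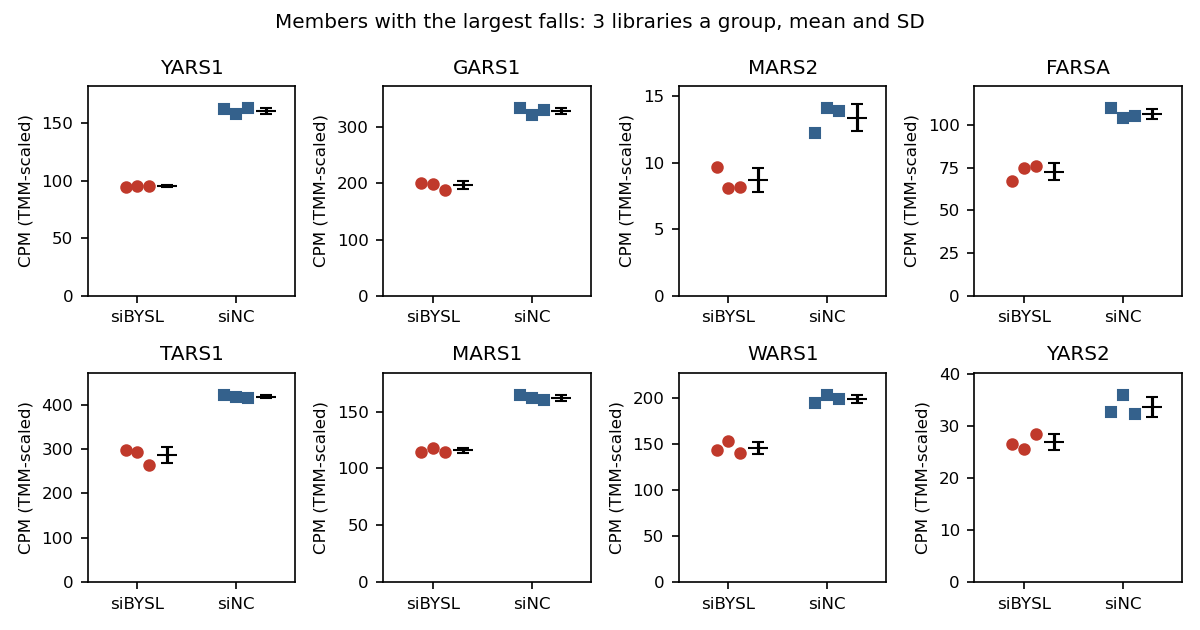
CPM (y axis, from 0) of the 8 members with the largest falls, with circles for siBYSL and squares for siNC libraries, and the mean with its SD to the right of each group (n = 3). In all 8 panels the siBYSL libraries lie below the siNC libraries; MARS2 and YARS2 are the mitochondrial members among them and have the lowest levels.

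The other cytosolic falls were smaller. VARS1, the valyl enzyme, averaged 125.0 ± 3.3 CPM in siBYSL and 152.5 ± 3.6 CPM in siNC (-0.29, adjusted p = 9.7e-04), and SARS1, the seryl enzyme, 173.1 ± 2.7 CPM in siBYSL and 207.2 ± 4.7 CPM in siNC (-0.26, adjusted p = 0.00157). These calls held in each of the alternatives tried. Those of IARS1 (isoleucine, -0.27, adjusted p = 0.0101), NARS1 (asparagine, -0.21, 0.0217), RARS1 (arginine, -0.20, 0.00821), FARSB and CARS1 (cysteine, -0.18, 0.0159) did not: with libraries scaled by their totals alone, their adjusted p ran from 0.0707 for IARS1 to 0.161 for NARS1. Single libraries mattered too. CARS1 was lost without siBYSL 2 (adjusted p = 0.0753), siNC 1 (0.0879) or siNC 3 (0.0540), and with upper-quartile factors (0.0521), and NARS1 without siBYSL 2 (0.0549), siNC 1 (0.0541), siNC 2 (0.0743) or siNC 3 (0.0877). IARS1 was lost without siNC 2 (0.0519), RARS1 without siBYSL 2 (0.0547) and FARSB without siNC 3 (0.0521), and the direction was the same in each case.

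Of the 6 cytosolic genes that did not pass, LARS1, the leucyl enzyme and a sensor of leucine, came closest: it had 144.1, 137.5 and 126.3 CPM in siBYSL against 154.0, 154.1 and 141.9 CPM in siNC, ranges that overlapped (-0.14, SE 0.061, adjusted p = 0.0924). Without siBYSL 1 it passed (-0.18, adjusted p = 0.038). HARS1, the histidyl enzyme, stood at -0.09 (adjusted p = 0.216). KARS1 (lysine), QARS1 (glutamine), EPRS1 (the fused glutamyl and prolyl enzyme) and AARS1 (alanine) lay between -0.02 and 0.06, with adjusted p from 0.356 to 0.97. KARS1 averaged 135.2 ± 2.8 CPM in siBYSL and 137.1 ± 0.61 CPM in siNC, and AARS1 78.9 ± 2.0 CPM in siBYSL and 75.5 ± 1.5 CPM in siNC. AARS1 is often listed as an ATF4 target and was not lower in any siBYSL library than the siNC mean.

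The 7 enzymes of the multisynthetase complex can be set beside the 12 free cytosolic enzymes. Among the 7, 3 fell (IARS1, MARS1 and RARS1) and the median log2 fold change was -0.14. Among the 12 free ones, 10 fell and the median was -0.27, with AARS1 and HARS1 not passing. By fold of the catalytic domain, 9 of 17 tested class I members fell and 1 rose, against 7 of 16 class II members that fell, with medians of -0.18 and -0.06; EPRS1, which has a domain of each class, is in neither count. Of 12 synthetases often listed as ATF4 targets 9 fell (median -0.26), and of the 7 other cytosolic genes 4 fell (median -0.20). FARSA and VARS1, with falls of -0.55 and -0.29, belong to those 7. The differences between these groupings were not tested. Over all tested genes 18.4% fell, and among those with a mean of 10 CPM or more 25.4% fell.

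Because several of these genes are described as ATF4 targets, promoter windows of RefSeq (250 bases before to 50 after an annotated start, build GRCh38.p14) were searched on both strands for TGATGNAA, the C/EBP-ATF response element that ATF4 dimers are known to bind. A window was found for 30 of the 35 members; YARS1, VARS1, LARS1, AARS2 and VARS2 had none in the table. The element was present in 8 of the 30 (26.7%), beside 302 of 11238 tested genes with a window (2.69%) and 1217 of all 27305 genes in the table (4.46%). By compartment, 7 of 16 cytosolic members held it (43.8%) and 1 of 14 mitochondrial members (7.14%). Of the 8 matches, 7 follow with 12 bases on either side, read 5′ to 3′ on the gene's own strand, the element in capitals; TTNCATCA is the same element on the opposite strand.

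AARS1: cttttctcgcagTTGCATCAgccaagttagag
CARS1: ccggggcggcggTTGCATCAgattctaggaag
GARS1: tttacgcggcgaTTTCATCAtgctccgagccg
MARS1: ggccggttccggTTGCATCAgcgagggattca
NARS1: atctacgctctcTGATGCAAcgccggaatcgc
TARS1: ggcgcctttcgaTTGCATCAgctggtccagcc
YARS2: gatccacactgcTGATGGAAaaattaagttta

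In AARS1, CARS1, MARS1 and TARS1 the element read TTGCATCA, and in NARS1 its reverse complement TGATGCAA; GARS1 differed at the variable base and so did YARS2. Positions are counted from the annotated start of the window that holds the match, as 0. The first base of the element lay at -33 in GARS1, -4 in MARS1, -2 in CARS1, 2 in TARS1 and 14 in NARS1. GARS1, CARS1 and TARS1 each have another window, from another annotated start, without the element, so its position depends on the start used. All 5 genes fell, beside 18.4% lower over all tested genes, and a link between position and fall was not tested. In AARS1 it lay at -187, and AARS1 did not pass the test (0.06). In YARS2 it lay at -197, and YARS2 fell. The printed stretches are chr16:70289674-70289705 (AARS1, minus strand), chr11:3057406-3057437 (CARS1, minus), chr7:30594833-30594864 (GARS1, plus), chr12:57488052-57488083 (MARS1, plus), chr18:57621803-57621834 (NARS1, minus), chr5:33440955-33440986 (TARS1, plus) and chr12:32756075-32756106 (YARS2, minus). Of the 9 cytosolic members whose window lacked these letters, 5 fell, namely FARSA, FARSB, RARS1, SARS1 and WARS1, so falls were found with and without a match. A match is a string of letters and not a measured binding site.

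The whole RefSeq window that holds the GARS1 match, chr7:30594628-30594927 on the plus strand, is given whole, since GARS1 had the deepest fall among the genes with a match.

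GARS1 promoter: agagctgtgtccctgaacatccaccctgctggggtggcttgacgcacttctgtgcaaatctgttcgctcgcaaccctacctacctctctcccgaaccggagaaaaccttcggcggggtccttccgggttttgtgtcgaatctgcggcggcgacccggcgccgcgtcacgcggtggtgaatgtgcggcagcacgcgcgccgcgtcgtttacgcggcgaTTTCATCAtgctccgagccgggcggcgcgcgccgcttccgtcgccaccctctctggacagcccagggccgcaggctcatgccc

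GARS1-DT, a long noncoding RNA gene that runs the other way from the same region and shares 99 exonic bases with GARS1, went in the opposite direction. It had 21.5, 21.5 and 23.2 CPM in siBYSL against 17.5, 17.1 and 16.6 CPM in siNC (log2 fold change 0.37, SE 0.068, adjusted p = 0.00166). The library kit marked strand, while the setting used for counting is not given in the sources used here. MARS1 likewise shares 355 exonic bases on the opposite strand with DDIT3, a stress-response gene that rose (0.26, adjusted p = 0.0464). YARS1 shares 396 exonic bases on the opposite strand with S100PBP. S100PBP had 888, 994 and 813 counts in siBYSL against 913, 972 and 908 in siNC. GARS1-DT was picked for its overlap and its values were seen when it was picked.

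A search for short sites of the BYSL siRNA found none in the members. The guide strand is shown with the bases that define its seed, positions 2 to 8, in capitals, because transcripts can pair with that stretch.

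siRNA guide: uAUUCAGCaacgucaucuc

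The matching heptamer GCTGAAT occurred in the 3′ UTR of 0 of the 35 members, all of which have an annotated 3′ UTR, beside 1550 of 13099 tested genes (11.8%). Only the guide strand and the longest annotated 3′ UTR of each gene were searched. In the members these ran from 38 bases (RARS2) to 2360 (EARS2), and the shares were not matched for length.

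GARS1 and KARS1, which also give rise to mitochondrial forms, were counted as cytosolic, and GARS1 fell more (-0.74) than any gene counted as mitochondrial. Among the genes counted as mitochondrial, MARS2, for the methionyl enzyme, fell the most. It had 9.70, 8.11 and 8.19 CPM in siBYSL against 12.2, 14.1 and 13.8 CPM in siNC, with no overlap, on a low level of expression (log2 fold change -0.63, SE 0.099, adjusted p = 6.46e-04). YARS2, the tyrosyl enzyme, had 26.5, 25.6 and 28.6 CPM in siBYSL against 32.7, 36.0 and 32.4 CPM in siNC (-0.33, SE 0.070, adjusted p = 0.00404). SARS2, the seryl enzyme, averaged 20.2 ± 2.2 CPM in siBYSL and 24.7 ± 1.0 CPM in siNC (-0.29, SE 0.083, adjusted p = 0.0189). The calls of MARS2 and YARS2 held in each alternative tried, and that of SARS2 did not: its adjusted p was 0.0559 with library totals, 0.0555 without siBYSL 1, 0.0707 without siBYSL 2, 0.0800 without siNC 1 and 0.0570 without siNC 3. SARS2 shares 349 exonic bases on the opposite strand with MRPS12 and 1492 on its own strand with an unnamed gene of low count, so part of its reads could have been assigned elsewhere.

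IARS2, the mitochondrial isoleucyl enzyme, was the 1 member that rose. It had 221.8, 212.4 and 181.5 CPM in siBYSL against 171.0, 178.8 and 177.2 CPM in siNC (log2 fold change 0.22, SE 0.071, adjusted p = 0.0287). All siBYSL libraries were higher than all siNC libraries, siBYSL 3 by little. Without siBYSL 3 the value was 0.31 (adjusted p = 1.8e-06). The call was lost without siBYSL 1 (0.17, adjusted p = 0.0771), siBYSL 2 (0.20, 0.112), siNC 1 (0.20, 0.111), siNC 2 (0.24, 0.0707) or siNC 3 (0.23, 0.0914). FARS2, the phenylalanyl enzyme of mitochondria, stood just outside the threshold at 0.22 (SE 0.080, adjusted p = 0.0516). It had 19.4, 21.1 and 22.8 CPM in siBYSL against 19.3, 18.0 and 17.1 CPM in siNC, groups that touched without overlap, and it passed without siBYSL 1 (0.28, adjusted p = 0.0218), with library totals (0.0115), with upper-quartile factors (0.0270) and under a stricter filter on low counts (0.0430).

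The other 10 tested mitochondrial genes had log2 fold changes from -0.13 to 0.10 and none passed. EARS2, which loads glutamate, was at -0.13 (adjusted p = 0.224) and HARS2, the histidyl enzyme, at 0.10 (0.203). Between them lay LARS2 (-0.07), RARS2 (-0.07), NARS2 (-0.04), WARS2 (-0.04), CARS2 (0.01), AARS2 (0.03), PARS2 (0.06) and TARS2 (0.07), for leucine, arginine, asparagine, tryptophan, cysteine, alanine, proline and threonine. HARS2 starts next to HARS1 on chromosome 5, the 2 genes being read away from each other with 437 exonic bases in common on opposite strands. HARS2 also shares 152 exonic bases on the same strand with ZMAT2. ZMAT2 had 2969, 3521 and 3216 counts in siBYSL against 3015, 2878 and 3099 in siNC. Reads in that stretch could have been assigned to either gene or dropped. VARS2, the valyl enzyme, was too low for the filter in both groups, with 5, 9 and 9 counts in siBYSL against 7, 9 and 4 in siNC. It shares 1858 exonic bases on the same strand with GTF2H4, which had 855, 942 and 922 counts in siBYSL against 1009, 967 and 1039 in siNC. Reads in the shared stretch could have been assigned to either gene or dropped, so the level of VARS2 is uncertain, and without the filter it stood at 0.10 (adjusted p = 0.931).

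Per kilobase of exon, cytosolic enzymes were mostly the more abundant. GARS1 stood at 47.3 CPM per kb in siBYSL and 79.2 in siNC, and TARS1 at 50.0 in siBYSL and 73.0 in siNC. In siNC these were the highest levels of all members on this scale. In siBYSL TARS1 was followed by IARS2 at 49.3 CPM per kb, which stood at 42.2 in siNC, then GARS1, SARS1 (45.1 in siBYSL and 54.0 in siNC) and RARS1 (44.4 in siBYSL and 51.0 in siNC). In siBYSL these levels lie within a narrow range, and their order was not tested. Mitochondrial members other than IARS2 and VARS2 ran from 2.87 (MARS2) to 12.5 (YARS2) CPM per kb in siBYSL and from 3.42 (EARS2) to 15.7 (YARS2) in siNC. Length here is the union of all annotated exons, which understates the level of genes with long rare isoforms.

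For 14 amino acids both a cytosolic and a mitochondrial gene are among the members, which gives 15 pairs, as phenylalanine has both FARSA and FARSB. In 14 pairs both genes were tested. The log2 ratio of the cytosolic to the mitochondrial gene was lower in every siBYSL library than in every siNC library in 9 pairs, higher in 0, and overlapped in 5. How often ratios of other gene pairs separate was not computed, so the count of 9 has no background of its own. Among single tested genes, 49.6% had groups that did not overlap. For FARSA and FARS2 it was 1.78, 1.83 and 1.73 in siBYSL against 2.51, 2.53 and 2.62 in siNC, a difference of -0.77. For TARS1 and TARS2 the ratio was 3.04, 2.97 and 2.78 in siBYSL against 3.55, 3.51 and 3.60 in siNC (-0.62). Ratios within a library do not depend on how libraries are scaled, and the groups of both pairs lay well apart.

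The isoleucine pair was the 1 in which the cytosolic gene fell and the mitochondrial gene rose, the rise being a call that 5 of the 6 single-library omissions ended. Its log2 ratio was 0.10, 0.13 and 0.15 in siBYSL against 0.60, 0.65 and 0.60 in siNC, a difference of -0.49, and the within-group spread was small in both groups although IARS1 and IARS2 were each lowest in siBYSL 3. Per kilobase the cytosolic transcript stood at 0.614 of the mitochondrial one in siBYSL and 0.863 in siNC. The tyrosine pair also shifted, with both genes lower and YARS1 the more so (-0.43). The other separated pairs were FARSB with FARS2 (-0.42), and those for tryptophan (-0.41), cysteine (-0.19), histidine (-0.19) and arginine (-0.13). In the methionine and serine pairs both genes fell and the ratios overlapped, with differences of 0.14 and 0.04. The pairs for alanine (0.03), leucine (-0.07) and asparagine (-0.17) overlapped as well. These differences are descriptions without a test.

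**Figure D3:**
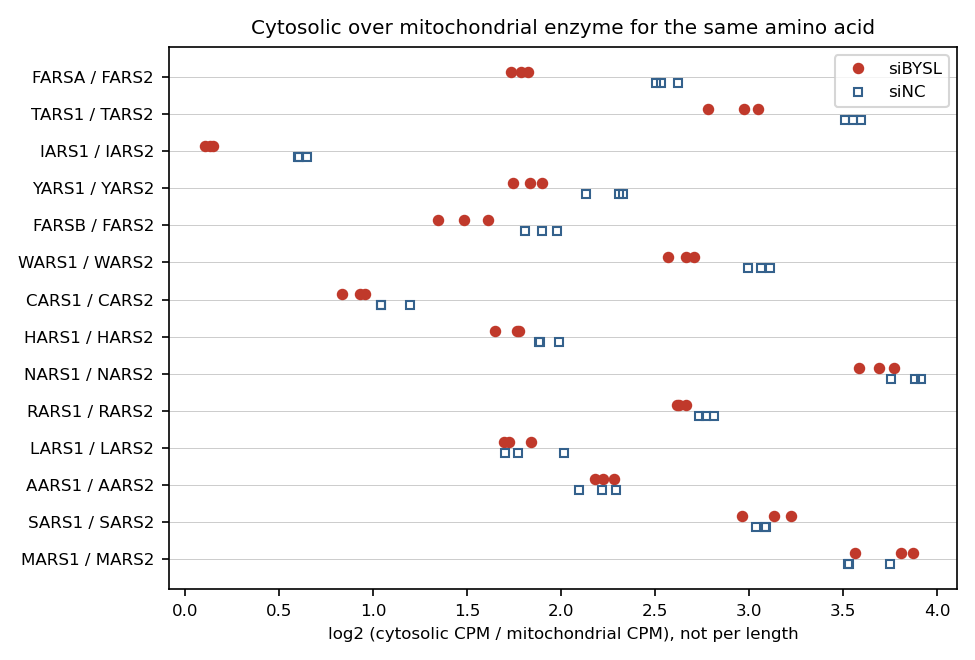
Log2 ratio of cytosolic to mitochondrial CPM for the same amino acid (x axis, not adjusted for length) in each library, for the 14 pairs with both genes tested, ordered by the difference between groups; circles are siBYSL and squares siNC. In 9 pairs all circles lie left of all squares, the phenylalanine, threonine and isoleucine pairs being the farthest apart, and at the bottom the groups overlap.

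Partners of the synthetases moved less uniformly. Their counts stand beside a background of 18.4% lower and 18.5% higher over all tested genes. Among genes with a mean of 10 CPM or more it was 25.4% lower and 18.5% higher. Of the 3 scaffold genes of the multisynthetase complex, AIMP2 fell, with 46.9, 49.2 and 54.5 CPM in siBYSL against 65.5, 59.0 and 63.8 CPM in siNC (-0.32, adjusted p = 0.00421). AIMP1 (0.10, adjusted p = 0.168) and EEF1E1 (0.02, 0.87) did not pass. Of 4 genes for the mitochondrial amidotransferase and formylation, 2 rose and 1 fell. MTFMT, which formylates the methionyl-tRNA that MARS2 makes, rose: it had 16.2, 17.2 and 17.5 CPM in siBYSL against 13.02, 12.99 and 12.7 CPM in siNC (0.39, adjusted p = 0.00164), while MARS2 fell. The amidotransferase subunit GATB rose by 0.21 (adjusted p = 0.0256) and QRSL1 fell by 0.22 (0.0338), and GATC stood at -0.07 (0.313).

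Of 4 synthetase-like and trans-editing genes, AARSD1 fell (-0.31, edgeR adjusted p = 0.0212) and DTD2, a deacylase for tRNA, rose (0.19, 0.035), while DTD1 (-0.13) and TARS3 (-0.19) did not pass. Of 5 genes for selenocysteine charging and insertion, SECISBP2, which binds the selenocysteine insertion element, fell (-0.23, adjusted p = 0.0122) and 4 did not pass. Among the cytosolic elongation factors, 3 of 5 fell, namely EEF1A1 (-0.18, edgeR adjusted p = 0.0178), EEF1G (-0.20, 0.0417) and EEF2 (-0.16, 0.0306). EEF1A1 averaged 6278 ± 113.4 CPM in siBYSL and 7112 ± 113.2 CPM in siNC. None of the 3 tested mitochondrial elongation factors passed the edgeR test, with values from -0.14 (GFM1) to 0.08 (GFM2).

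Genes that process tRNA transcripts and carry them out of the nucleus came next. Of 20 genes for tRNA maturation and export, 7 fell, 0 rose and 13 did not pass, with a median of -0.12. XPOT, the export receptor that carries mature tRNA out of the nucleus, had 97.0, 89.2 and 80.2 CPM in siBYSL against 145.7, 147.1 and 142.3 CPM in siNC (-0.71, SE 0.067, adjusted p = 2.49e-05), a fall close in size to those of YARS1 and GARS1. The tRNA ligase RTCB fell by 0.30, the kinase CLP1 of the splicing complex by 0.37 and the ribonuclease P subunit RPP14 by 0.32, with adjusted p from 9.17e-04 to 0.00182. Of 20 genes of the RNA polymerase III machinery, which transcribes tRNA genes, 6 fell (30.0%) and 2 rose, with a median of -0.08. That share of falls lay near the background. The subunits POLR3G and POLR3F fell by 0.68 and 0.42 and the TFIIIC gene GTF3C4 by 0.38. GTF3A, the 5S rRNA gene factor TFIIIA, rose by 0.35 (adjusted p = 0.00124).

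Most genes listed with the ATF4 response, synthetases aside, were lower, and any link between them and the synthetase falls was not tested. Of 15 genes 11 fell, 1 rose and 3 did not pass, with a median of -0.42. Over all tested genes 18.4% were lower and 18.5% higher. The gene that rose was DDIT3 (0.26, edgeR adjusted p = 0.0464), with groups that overlapped. ATF4 itself had 181.3, 192.6 and 195.3 CPM in siBYSL against 276.3, 270.3 and 275.6 CPM in siNC (-0.53, SE 0.050, adjusted p = 2.52e-05), with no overlap. Asparagine synthetase, ASNS, and CHAC1, which degrades glutathione, fell by 1.16 each, and PSAT1 of serine synthesis by 0.88. Their falls were deeper than any among the synthetases, whereas TRIB3 (0.18, adjusted p = 0.0671), CEBPB (0.11) and VLDLR (0.07) did not pass.

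**Figure D4:**
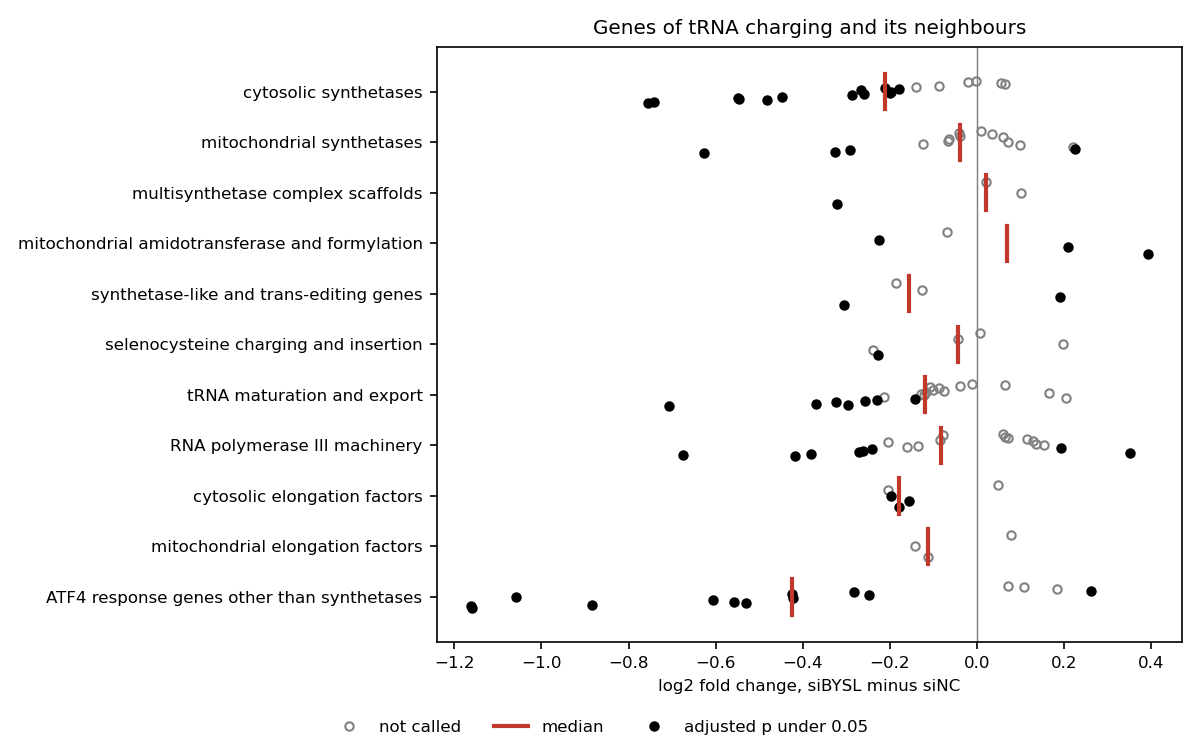
Log2 fold change, siBYSL minus siNC (x axis), of the tested genes in 11 lists around tRNA charging; filled points have an adjusted p under 0.05, open points do not, and the bar is the median of a list. The medians of the cytosolic synthetases (-0.21) and the ATF4 response genes (-0.42) lie left of 0, and that of the mitochondrial synthetases (-0.04) lies close to it.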

How the data were processed

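Gene expression was measured by strand-specific poly(A) RNA-seq with paired 150 nt reads in 3 siBYSL and 3 siNC cultures. The authors deposited raw counts per gene under versioned Ensembl identifiers. HISAT2, DESeq2 and GRCh38.p13 appear by name only, per the submitters' processing notes, with neither version nor role. How reads were assigned to genes and strands, and with which annotation, is stated in none of the sources used here.

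The fits used edgeR 4.0.16, DESeq2 1.42.0 and limma 3.58.1 under R 4.3.3; tables and figures used pandas 2.3.3, NumPy 2.4.6 and Matplotlib 3.10.9 under Python 3.11.15. The filter filterByExpr, by group, left 16412 genes, whose counts were scaled with TMM factors (1.0112 to 1.0405 in siBYSL and 0.96447 to 0.9806 in siNC). The difference of siBYSL from siNC was tested with edgeR's robust quasi-likelihood F test on group alone, fitted on all genes and adjusted by Benjamini-Hochberg over them, with a threshold of 0.05. "Fell" and "rose" mean past that threshold. The SE of a gene is the size of its log2 fold change over the root of F. Precision rests on library totals of 27754883 to 32088817 counts and a biological coefficient of variation of 0.0649. Scripts were tested on simulated data.

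GENCODE 29, possibly not the authors' annotation, gave coordinates, exon lengths and 3′ UTRs, and RefSeq (GRCh38.p14) gave promoters; a gene with more than 1 window counts as having the element if any window does. The sequence of 1 match is not reported here.

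The members and all gene lists were chosen with earlier results of these data known. Library values are given for up to 8 called members in each direction, by size of change, and for those with an adjusted p from 0.05 to 0.1. Up to 4 genes with the smallest p are named from each partner list. The members of a list that did not pass, DDIT3, GARS1-DT, GTF2H4, S100PBP and ZMAT2 were added after their values were seen. Alternatives changed the test (limma-voom or the DESeq2 Wald test), the scaling (library totals, upper-quartile factors or DESeq2 size factors), the filter (none, or at least 3 libraries with 1 CPM or more), the design (a block on replicate number) and the libraries (1 left out at a time); leaving out genes with a guide-seed heptamer was added after seeing the data. No set test and no test over the members as a group was run.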

Additional observations from a re-analysis of the deposited data

How the results depend on the processing

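The falls of YARS1, GARS1, MARS2, FARSA, TARS1, MARS1, WARS1, YARS2, VARS1 and SARS1 were called, in the same direction, in all 15 alternatives; 1 of these, which left out genes with a guide-seed heptamer, removed no member and so is hardly a test of them. With DESeq2 size factors, no filter, the DESeq2 Wald test or limma-voom, 16 members were lower and 1 higher, as in the report. With library totals alone, 10 members were lower and 3 higher (IARS2, FARS2 and HARS2), all 3 higher ones mitochondrial, and 8 cytosolic genes were called, all 8 of them lower; the members' median was -0.054, the cytosolic median -0.13, the mitochondrial median turned to 0.040, and over all genes 1989 were lower and 4106 higher with a median of 0.085. With upper-quartile factors 2 members were higher, both mitochondrial, 15 were lower, the members' median was -0.089 and the mitochondrial median turned to 0.0061; 2418 genes were lower and 3630 higher. The stricter filter gave 2 higher members, both mitochondrial. Leaving out 1 library at a time gave 12 to 18 members called, 12 to 17 of them lower and 0 to 1 higher, 10 to 14 cytosolic genes called, and 2 to 4 mitochondrial genes called with 0 to 1 higher, among 4226 to 8004 genes called over all. The members' median then ran from -0.16 to -0.10, and the mitochondrial median from -0.044 to 0.024, the highest value being the one without siBYSL 3. The causes of these changes were not tested. Replicate numbers did not pair the samples: the correlations of same-numbered deviations were -0.13, 0.06 and 0.01. With the number as a replicate block 5566 genes were called, and 17 members, 16 of them lower. Low counts limit VARS2 most, and among tested members PARS2 and MARS2.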
